A study of Mus musculus with 2 samples.

Results

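The KLF4 peak list of mouse portal fibroblasts assigned 4 of its 4216 peaks to the genes Klf3, Ier2 and Ccl2. The 4 peaks were all rows with 1 of these 3 gene symbols. Of the 4, 3 were classed as promoter peaks, 1 for each gene, and the fourth was a distal intergenic peak of Klf3. The genes were chosen by a measured value of this same list, the presence of a promoter peak that passed the authors' q-value limit, so their strengths and ranks below are a description and carry no test.

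Both libraries came from primary hepatic portal fibroblasts, sorted as Clec3b-tdT+ cells from livers of Clec3bCreERT2;R26tdT mice and given extra Klf4 by lentivirus. In these mice a Cre recombinase that responds to tamoxifen is driven by Clec3b and switches on a red reporter. Group 1 was a KLF4 ChIP library and group 2 its input library, each with 1 sample and no replicate, so error between samples could not be estimated. Cells without the lentivirus were not analysed here, so the peaks describe cells in which Klf4 was overexpressed. The labels give no age for the mice. Positions, fold enrichments (the ChIP level plus 1 over the local background level plus 1), p-values and q-values are the authors' own, on GRCm39. A peak list measures no RNA and cannot show which cell type was sorted. Any assigned peak was found at 0 of 10 portal fibroblast markers, 0 of 6 stellate cell markers, 0 of 3 hepatocyte markers, 2 of 4 macrophage markers (Adgre1 and Lyz2), 1 of 2 cholangiocyte markers (Epcam) and 1 of 2 endothelial markers (Stab2), where 6.91% of all protein-coding genes had one. The Lyz2 peak lay in input background 47.6 times the genome-wide level, and these lists are too short to tell apart by peaks.

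KLF4 is a zinc-finger factor of the Krüppel-like (KLF) family, whose members bind GC-rich and CACCC sequences through a conserved block of zinc fingers at the C-terminal end. KLF3 belongs to the same family and acts mostly as a repressor, recruiting the co-repressor CtBP to CACCC sites. Ier2 is an immediate early gene: growth factors switch it on within minutes, without new protein synthesis, and its product is a small nuclear protein. Ccl2 encodes monocyte chemoattractant protein, the ligand of the receptor CCR2. Activated fibroblasts and stellate cells of the liver secrete it, and it draws monocytes into injured tissue.

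The Klf3 promoter is shown because it was the only one of the 3 with a RefSeq promoter window. The line below holds the 250 bases before the RefSeq start of Klf3 on the plus strand at chr5:64803271-64803520 of GRCm38.p6, 5′ to 3′, with capitals for each CACCC on either strand.

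Klf3 promoter: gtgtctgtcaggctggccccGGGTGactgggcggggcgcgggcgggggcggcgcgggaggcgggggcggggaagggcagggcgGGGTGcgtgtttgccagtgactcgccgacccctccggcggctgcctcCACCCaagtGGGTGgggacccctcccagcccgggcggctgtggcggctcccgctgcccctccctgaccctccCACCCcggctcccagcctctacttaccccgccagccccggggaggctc

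These 250 bases held 5 matches to CACCC, 2 on the strand shown and 3 on the other, the nearest at 48 to 44 bases before the start. At least 1 match was present in 53.2% of 17492 protein-coding promoters of the same length, and 5 or more in 0.6%. GGGCGG, the GC box, matched 6 times, 1 of them overlapping a CACCC match. It was present in 42.7% of the promoters, and 6 or more times in 1.24%. GGGNGTG, a core of KLF4 sites, had 0 matches in the Klf3 window and was present in 28.4% of promoters. The Klf3 window was 78.4% G and C, against a median of 55.2% over those promoters, and held 23 CG pairs, against a median of 10. Among 217 other protein-coding genes with a peak within 1 kb of the transcription start site (TSS), the shares of windows with a match were 60.4% for CACCC, 55.8% for GGGCGG and 33.6% for GGGNGTG, against the 53.2%, 42.7% and 28.4% over all. These matches are letters in a window and not sites of binding. A peak within 1 kb need not lie in the window: of 423 such promoter peaks of other genes, 153 lay downstream of the TSS. The G and C content of the 217 windows was not analysed here. The Klf3 peak itself lay farther upstream, with its nearer edge 971 bp before the TSS on GRCm39, and peak sequences were not used here.

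The Ier2 peak lay on the start of its gene. With 297 bp it reached from 85389373 to 85389669 on chromosome 8, and Ier2 is read from the minus strand with its transcript (ENSMUST00000060427) at 85387960 to 85389483. The peak took in 186 bp upstream of the TSS and the first 111 bp of the transcript, so its deposited distance was 0. Its fold was 6.65 and its q 4.78e-05, the highest fold and lowest q of the 4 peaks. A peak that covered the TSS was found at 82 of 865 promoter peaks of other genes (9.48%), and at 63 of 540 of other protein-coding genes (11.7%).

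The Ccl2 peak lay at the far end of its assigned transcript, although its deposited class was promoter at 1 to 2 kb. With 852 bp it reached from 81928052 to 81928903 on chromosome 11, and the assigned transcript (ENSMUST00000124479, plus strand) ran from 81926436 to 81928276, a length of 1841 bp. The nearer edge of the peak was thus 1616 bp downstream of the TSS. The peak covered the last 225 bp of the transcript and 627 bp past its end, and 0 bp upstream of the TSS. The promoter class takes in both sides of a TSS, and 124 promoter peaks of other genes also lay 1 to 2 kb downstream. The end of the assigned transcript was covered at 12 of 865 promoter peaks of other genes (1.39%). Among other protein-coding genes it was 1 of 540, the peak of the regulator Id1, a gene of 1160 bp, named after its values were seen. Both shares count transcripts of every length, and a peak within 3 kb of the TSS mainly reaches the end of short ones. The share among transcripts as short as that of Ccl2 was not analysed here. The Ccl2 fold was 6.23 and its q 0.00029. This transcript may not be the one that starts at the main Ccl2 promoter, and starts of other Ccl2 transcripts were not analysed here.

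Klf3 had 2 peaks, 1 on each side of its gene on chromosome 5. The promoter peak covered 185 bp, from 64959576 to 64959760. It lay wholly upstream of the transcript (ENSMUST00000165536, plus strand, 64960731 to 64990244), at 1155 to 971 bp before the TSS, with a fold of 5.19 and a q of 0.0104. The distal peak covered 127 bp, from 65000992 to 65001118, with a fold of 5.64 and a q of 0.00238. It was assigned to a short Klf3 transcript (ENSMUST00000198946, 64984152 to 64986893) that starts inside the long one, 16840 bp before the peak. Measured against the long transcript, the distal peak began 40261 bp from the TSS and 10748 bp past the transcript's end. The distal peak thus had the higher fold of the pair, but both had 7 ChIP fragments. The folds differed only through the background, 0.417 fragments at the distal and 0.542 at the promoter peak. A gap of 41231 bp separated the 2 peaks. Klf3 was 1 of 79 genes with both a promoter peak and another away from promoters, out of 817 genes with a promoter peak (9.67%).

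**Figure D1:**
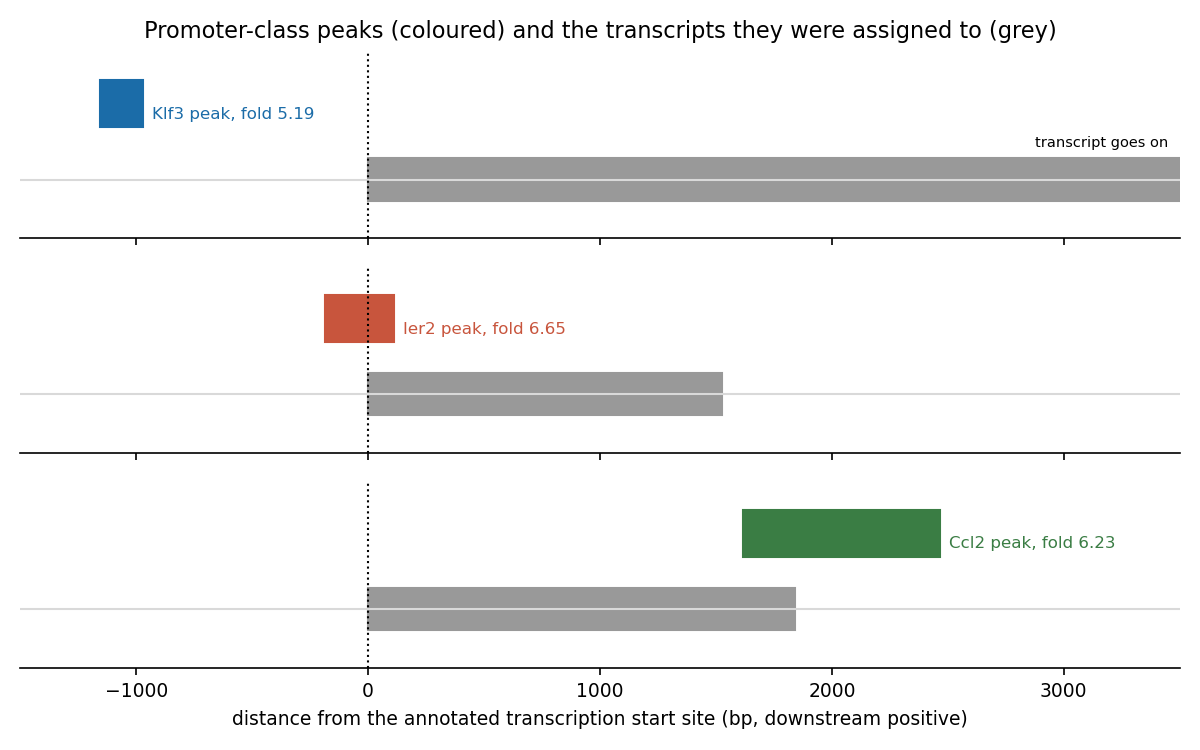
Promoter-class peaks of Klf3, Ier2 and Ccl2 (coloured bars) over the transcripts they were assigned to (grey bars), by distance from the transcription start site in bp, with downstream positive. The Klf3 peak ended 971 bp upstream of the start, the Ier2 peak reached from 186 bp upstream into the transcript, and the Ccl2 peak began 1616 bp downstream and ran 627 bp past the end of the transcript.

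Few fragments lay behind each peak. The number of ChIP fragments at the summit, recovered from fold and p, was 8 for Ier2, 8 for Ccl2, 7 for the Klf3 promoter peak and 7 for the Klf3 distal peak. The 95% exact Poisson interval was 3.45 to 15.8 for 8 fragments and 2.81 to 14.4 for 7, which covers counting error only. The median promoter peak of other genes had 6 fragments, a number inside both intervals, and 640 of the 865 (74.0%) had 5 or 6. At this depth a difference between the member peaks, or between any of them and the median promoter peak, was not detectable.

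The local background taken from the input was 0.353 fragments at Ier2, 0.445 at Ccl2, 0.542 at the Klf3 promoter peak and 0.417 at the Klf3 distal peak. These were 1.15, 1.45, 1.76 and 1.36 times the genome-wide background of 0.307 fragments. None of the 4 peaks lay in high input background, here over 10 times the genome-wide level, which held 52 of the 865 promoter peaks of other genes. Without the added 1, ChIP over background was 22.6 at Ier2, 18.0 at Ccl2, 12.9 at the Klf3 promoter peak and 16.8 at the Klf3 distal peak. With the counting interval of the fragments alone, the fold ranged from 3.29 to 12.4 for Ier2, 3.08 to 11.6 for Ccl2, 2.47 to 9.99 for the Klf3 promoter peak and 2.69 to 10.9 for the distal one. Each range held the median fold of promoter peaks of other genes, 4.59.

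By rank, Ier2 and Ccl2 were near the top of the promoter peaks and Klf3 lower, by fold. Of 865 promoter peaks of other genes, 848 had a lower fold than Ier2 (98.0%, 95% exact binomial interval 96.9% to 98.9%) and 17 a higher one. For Ccl2, 841 were lower (97.2%, 95.9% to 98.2%) and 24 higher. For Klf3, 695 were lower (80.3%, 77.5% to 82.9%), 26 equal and 144 higher. The binomial intervals treat the 865 peaks as draws and hold the member's fold fixed. They leave out the counting error of that fold, so they do not bound the rank. These ranks lean on small differences in background, because fold takes few values at such fragment numbers. By fragment number alone, Ier2 and Ccl2 shared their 8 fragments with 39 promoter peaks of other genes, while 741 had fewer (85.7%) and 85 had more. Of those 85, 33 lay outside high background. The Klf3 promoter peak shared its 7 fragments with 101 others, and 26 promoter peaks of other genes had exactly its fold and p. Among 3347 peaks of other genes away from promoters, 3165 (94.6%) had a lower fold than the distal Klf3 peak.

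The Ccl2 peak was the widest of the 4. At 852 bp it was wider than 860 of the 865 promoter peaks of other genes (99.4%), whose median was 217 bp (quartiles 150 and 311 bp). The 5 wider ones belonged to the ferritin gene Fth1 (858 bp), the myosin light chain gene Mylpf (875 bp), Gm55369 (1160 bp), the chromatin-binding gene Hdgfl2 (1841 bp) and Gm55523 (3205 bp), all named after their widths were seen. The Ier2 peak, at 297 bp, was wider than 71.1% of these promoter peaks. The Klf3 promoter peak, at 185 bp, was wider than 38.2%, and the distal Klf3 peak, at 127 bp, than 17.2% of peaks of other genes away from promoters.

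**Figure D2:**
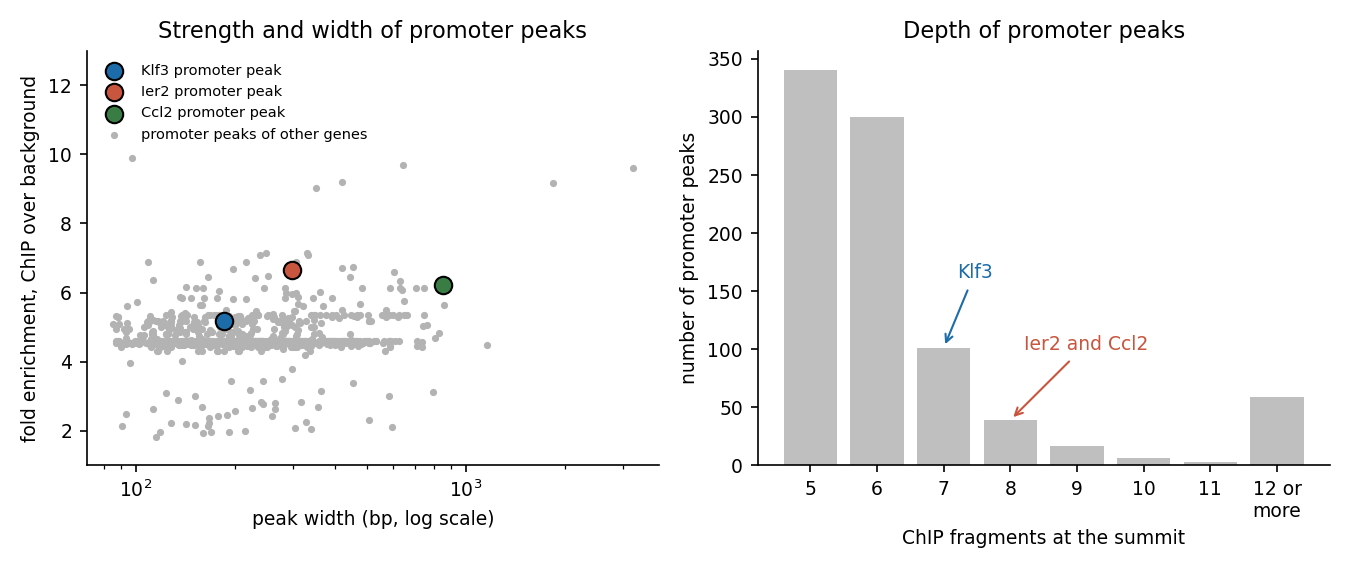
Left, fold enrichment of promoter peaks against peak width in bp (log scale), with Klf3, Ier2 and Ccl2 coloured and 865 promoter peaks of other genes in grey. Right, the number of those 865 promoter peaks by ChIP fragments at the summit, with arrows at the 7 fragments of Klf3 and the 8 of Ier2 and Ccl2; Ccl2 stands to the right on width, and most other peaks have 5 or 6 fragments.

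The protein-coding promoter peaks most like each member had the same fragment number and the nearest fold, with ties in fold settled by the nearest width. For Ier2 they were those of Plaa, the phospholipase A2 activating protein (fold 6.70), Spag9, a scaffold of JNK signalling (6.58), and Fdxr, the mitochondrial ferredoxin reductase (6.88). For Ccl2 they were the olfactory receptor gene Or5al1 (6.17), the cytoskeletal linker gene Dst (5.98) and Spag9 (6.58). Gsto1, a glutathione transferase gene, Vmp1, an autophagy gene, and the transporter gene Slc45a4 had the very fold of Klf3 (5.19), each from 7 fragments. They were the nearest in width, at 194, 196 and 216 bp against 185 bp for Klf3, among its exact ties. Next above and below in fold stood Plaa and Spag9 for Ier2, Garin1b (6.34) and Or5al1 for Ccl2, and the centromere gene Cenpt (5.26) and the exoribonuclease gene Eri3 (5.17) for Klf3. For the study's own question, the Postn peak had a fold of 4.54 from 6 fragments and a q of 0.0484, and Klf4 had 0 peaks.

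Around the 3 promoter peaks, the nearest peaks of other genes belonged to long non-coding RNA genes. On chromosome 8, the only other peak within 100 kb of the Ier2 peak was that of G430095P16Rik, 60.3 kb away, with a fold of 4.59 from 5 fragments. On chromosome 11, the Ccl2 peak had the peak of Gm31522 at 18.3 kb, with a fold of 4.57 from 5 fragments. That peak too was wide, at 736 bp. Widths of 700 bp or more, a limit just below its own width, were found at 17 of the 865 promoter peaks (1.97%), that peak included. Whether the widths of neighbouring peaks are linked was not tested. An intronic peak of Asic2, an ion channel gene (fold 4.54, 6 fragments), lay just outside at 106 kb. On chromosome 5, the Klf3 promoter peak had its own distal peak at 41.2 kb and the peak of Gm20033 at 89.7 kb, whose fold (5.19), fragments (7) and background (0.542) equalled its own. Such ties were common, since 115 other peaks of the list had the fold and p of the Klf3 promoter peak. The distal Klf3 peak had no other peak within 100 kb than the promoter one.

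Having such a neighbour was common. At least 1 other peak lay within 100 kb of 367 of the 865 promoter peaks of other genes (42.4%), and at least 2 at 14.0%. Klf3 had 2, Ier2 1 and Ccl2 1. Within 1000 kb the loci differed more, with 10 other peaks around Ier2, 7 around Klf3 and 2 around Ccl2, against a median of 4 and an upper quartile of 6 around promoter peaks of other genes. The 10 around Ier2 had folds from 4.32 (Cacna1a, a calcium channel gene) to 5.35 (Zswim4), all below the Ier2 fold of 6.65. The 2 around Ccl2 were likewise below the Ccl2 fold of 6.23. Around Klf3 the order was different, since an intronic peak assigned to Gm43627, 201 kb away, reached a fold of 6.63 from 9 fragments, and one assigned to the pseudogene Gm6044, at 471 kb, had 5.85 from 7.

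**Figure D3:**
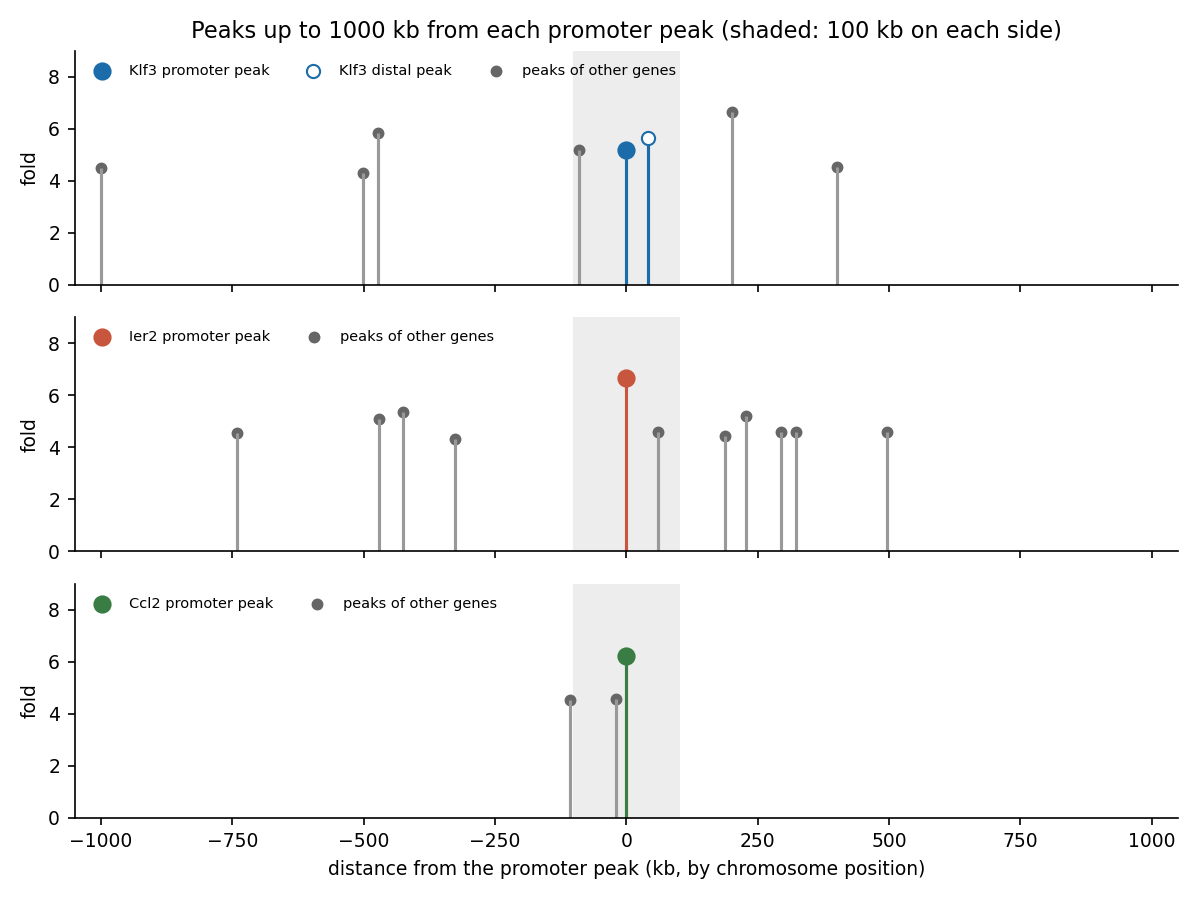
Fold enrichment of every peak within 1000 kb of the Klf3, Ier2 and Ccl2 promoter peaks, against distance in kb along the chromosome, with 100 kb on each side shaded. The Ier2 and Ccl2 peaks are the highest of their panels, whereas 2 peaks of other genes and the distal Klf3 peak stand above the Klf3 promoter peak.

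Adjacent protein-coding genes mostly had no assigned peak. Of the 5 nearest on each side in the order of GRCm38.p6, 1 of 10 around Klf3 had an assigned peak (Tbc1d1), 2 of 10 around Ier2 (Zswim4 and Cacna1a) and 1 of 10 around Ccl2 (Asic2), where 6.91% of all protein-coding genes had any assigned peak. A peak inside a gene but assigned to another was not counted for it, which may hold for the intronic peak assigned to Gm43627. The genes without an assigned peak included the Toll-like receptor genes Tlr1 and Tlr6, next to Klf3. They also included the chemokine genes Ccl7, Ccl11, Ccl12, Ccl8 and Ccl1, which follow Ccl2 in its cluster.

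The share of each member's family with a peak had a wide interval that held the share over all protein-coding genes, and with so few fragments a missing peak leaves weak binding undetected. In the KLF and SP family, Klf3 was 1 of 26 genes with a promoter peak (3.85%, 95% exact interval 0.0973% to 19.6%), where 2.18% of 21900 protein-coding genes had one. None of the other family members had a peak of any class, Klf4 included. Among immediate early genes Ier2 was 1 of 34 (2.94%, 0.0744% to 15.3%). Any assigned peak was found at 2 of 34 (5.88%, 0.72% to 19.7%), beside the 6.91% over all protein-coding genes, the other being the antiproliferative gene Btg2, with a peak just downstream of the gene (fold 4.59, 5 fragments). Classical members such as Fos, Jun and Egr1 had 0 peaks.

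Among chemokines and their receptors Ccl2 was 1 of 58 with a promoter peak (1.72%, 0.0436% to 9.24%), beside 2.18% over all protein-coding genes. Its receptor Ccr2 had 0 peaks. Any assigned peak was found at 5 of 58 (8.62%), beside the 6.91% over all protein-coding genes. The other 4 were the macrophage-attracting chemokine genes Ccl6 (fold 4.74) and Ccl9 (4.59), the neutrophil chemoattractant gene Cxcl5 (4.97) and Cx3cl1, the membrane-bound ligand of CX3CR1, with 2 peaks (5.16 and 4.32). All of these lay below the Ccl2 fold of 6.23. NF-κB, the factor that inflammatory cytokines activate, drives Ccl2 transcription. Of 37 genes of that pathway and its inflammatory targets, 2 had a promoter peak (5.41%, 0.661% to 18.2%), beside 2.18% over all protein-coding genes. They were Nfkbib, an inhibitor that holds NF-κB in the cytoplasm (fold 4.59, 5 fragments, covering the TSS), and Ikbkb, the kinase that releases it (4.51, 6 fragments). Stat3, a cytokine-activated factor, had an intronic peak (4.68). Il6, Tnf and Il1b had 0 peaks. The intervals of all 4 lists held the share over all protein-coding genes, and 3 of the lists contain a member that was chosen for its promoter peak.

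The member counts depended on the limits of the promoter class and of q. With promoters within 1 kb, where 1.19% of protein-coding genes had a peak, Klf3 and Ier2 had one and Ccl2 had none. With a q under 0.01, where the share was 0.411%, Ier2 and Ccl2 had a promoter peak and Klf3, at 0.0104, had none. Without peaks in high background, where the share was 2.13%, all 3 had one. The members were chosen for having a promoter peak, so these shares over all genes do not gauge them. Among the 865 promoter peaks of other genes, 423 lay within 1 kb, 180 (20.8%) had a q under 0.01 and 52 lay in high background.

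**Figure D4:**
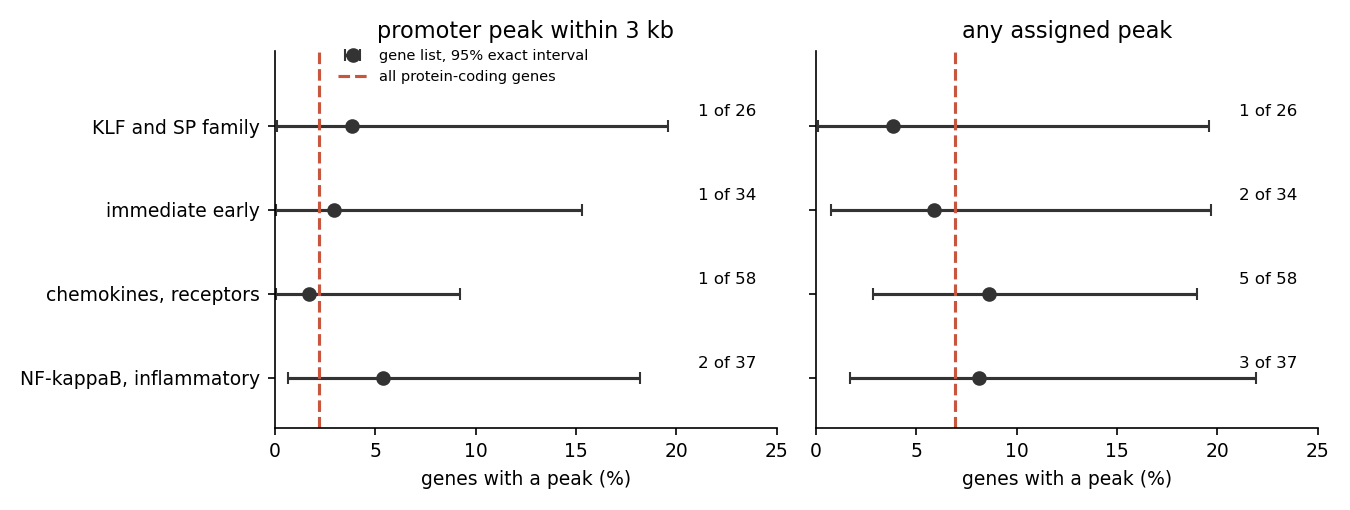
Percent of the genes of 4 lists with a promoter peak within 3 kb (left) and with any assigned peak (right); bars are 95% exact binomial intervals and the dashed line is the share over all protein-coding genes, 2.18% on the left and 6.91% on the right. Every interval crosses its line.

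The deposited annotation put Ccl2 in 17 pathways, Klf3 in 1 (transcriptional misregulation in cancer) and Ier2 in 0. For these 17 pathways, the share annotated among 508 other protein-coding genes with a promoter peak was compared with that among 1077 with peaks elsewhere only. It was higher in 8 pathways and lower in 9, with shares of 0% to 1.97% among genes with a promoter peak and 0.371% to 1.58% among genes with peaks elsewhere. The share over all genes was not analysed here, so no pathway is set apart.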

How the data were processed

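A single annotated peak list of the KLF4 ChIP against its input was used. Per the submitters' processing notes, the tools were MACS2 2.2.7.1, Bowtie2 2.4.2 and ChIPseeker 1.44.0, along with fastp 0.24.0, bcl2fastq 2.17 and deepTools 3.4.1, and the build was GRCm39. Their parameters were not given in the sources used here. Per the labels' protocols, chromatin was cross-linked, sonicated to 100 to 500 bp and precipitated with an antibody against KLF4.

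The deposited fold enrichment is a linear ratio per peak, the deposited −log10 columns are those of its p-value and q-value, and the authors also listed the p-value and q-value themselves. The class of each peak (promoters within 3 kb), its transcript and its TSS distance are the deposited ones.

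Whole-number ChIP fragments at the summit and the background were solved from fold and −log10 p, taking fold as fragments plus 1 over background plus 1 and p as a Poisson tail. All 4216 peaks fitted within 0.001 (relaxed in proportion for −log10 p over 10). On 500 simulated peaks 500 heights were recovered. These peaks were made with the same formula and had backgrounds below the high-background level, so recovery at higher backgrounds was not simulated. The lowest background was read as the genome-wide one. Absolute library depth is unknown.

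Ranks count other genes' promoter peaks below each member. Gaps are between peak edges. Lists were matched by symbol to a GRCm38.p6 gene table used for names and gene order (1496 of 1586 protein-coding symbols of the peak list matched, and Cxcl11 of the lists did not). Promoter windows are RefSeq's, on GRCm38.p6, 1 per symbol, and Ier2 and Ccl2 had 0. Motifs were searched on both strands.

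The members and lists were chosen with earlier results of these data known. Named genes are the members, genes with peaks near them, list genes with peaks, the 3 most alike and the next above and below in fold, with Klf4 and Postn. Cell type markers were only looked up for peaks. The software was scipy 1.17.1, pandas 2.3.3, numpy 2.4.6 and matplotlib 3.10.9 under Python 3.11.15. Some named genes are not reported here.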

Additional observations from a re-analysis of the deposited data

How the results depend on the processing

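No paired analysis was possible because there was 1 library of each kind. Ranking by −log10 q in place of fold put 74.2% of other promoter peaks below Klf3, 94.5% below Ccl2 and 95.8% below Ier2. By ChIP fragments these shares were 74.0%, 85.7% and 85.7%, and by width 38.2%, 99.4% and 71.1%. With protein-coding genes only, without high background or, for Klf3 and Ier2, within 1 kb, the shares stayed inside their binomial intervals. Those intervals leave out the counting error of the member's own fold. Ccl2 has no value within 1 kb, since its peak is not in that class. Of the 4 member peaks, 0 had a q under 1e-05 and 2 were promoter peaks within 1 kb. Of the 865 promoter peaks of other genes, 423 lay within 1 kb, and their share with a q under 1e-05 was not analysed here. Other peaks within 50 kb numbered 1 at Klf3, 1 at Ccl2 and 0 at Ier2, where 27.6% of promoter peaks of other genes had at least 1. Within 250 kb there were 3 at Klf3, 2 at Ccl2 and 3 at Ier2, where 65.0% had at least 1. Within 1000 kb there were 7 at Klf3, 2 at Ccl2 and 10 at Ier2, where 96.0% had at least 1. With a q under 0.01, 1 was left within 100 kb of Klf3, 0 of Ccl2 and 0 of Ier2. The same count around promoter peaks of other genes was not analysed here. Within 1 kb, 0 of 58 chemokine genes and 1 of 37 NF-κB genes had a promoter peak, where 1.19% of all protein-coding genes had one. With a q under 0.01, 0 of 26 KLF and SP genes and 0 of 37 NF-κB genes had one, where the share was 0.411%. Such counts do not set these lists apart. Any assigned peak was found at 2 of 34 immediate early genes and 5 of 58 chemokine genes, where the share was 6.91%. In the Klf3 window, CACCC matched 5 times and GGGCGG 6 times, against 0 for GGGNGTG. Fewer or more peaks and wider or narrower windows entered by construction; other causes were not tested. Peaks of 7 or 8 fragments limit every rank.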
